A study of Mus musculus with 16 samples.

Results

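The cytosolic ribosomal protein genes of mouse ear skin were followed across diet and a skin irritant. They were taken as every protein-coding gene whose symbol opens with Rps, Rpl or Rplp and a digit, without the ribosomal S6 kinases, which gave 102 of the 48440 genes in the count table. By their symbols, 30 encode proteins of the small subunit, 46 proteins of the large subunit (the stalk proteins Rplp0, Rplp1 and Rplp2 among them), and 9 are paralogs. A further 16 carry a retrocopy name ending in ps and a number but are annotated as protein-coding, and Rps19bp1 encodes a protein that binds Rps19 and is not a ribosomal protein itself. The name rule uses no measured value.

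Each cytosolic ribosome is built from a small subunit, which decodes the mRNA, and a large subunit, which joins amino acids, and most of their proteins are present in a single copy, while the stalk carries more than 1 copy of Rplp1 and Rplp2. Most ribosomal protein mRNAs are terminal oligopyrimidine (TOP) mRNAs: transcription opens on a C followed by an unbroken run of C and T, and mTOR signalling controls their translation through this run. In the epidermis, basal keratinocytes divide and make much protein, and Rplp0 and Rpl13a are often used as reference genes in qPCR.

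RNA came from the ear skin of B6 mice on a normal diet (ND) or on a high-fat diet (HFD) given for 8 weeks. Ears were either left untreated or painted with 200 ng of the protein kinase C activator PMA, a phorbol ester, and collected 24 h afterwards. The 4 groups of 4 mice were untreated ND (ND_cont), untreated HFD (HFD_cont), PMA-treated ND (ND_PMA) and PMA-treated HFD (HFD_PMA), with 1 library per mouse. The sources used here do not give the age or sex of the mice, or say if untreated ears were painted with solvent.

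Library totals ran from 7739487 to 15571389 counts. Levels are given as CPM, each count divided by its library total and scaled by TMM, a method that evens out libraries by the bulk of their genes. Library IDs carry 1 of 2 prefixes whose meaning is not given. All 4 ND_cont libraries and HFD_cont_1 are RHS and the other 11 are RHP, so the prefix and PMA cannot be told apart in ND mice. In untreated skin the prefix and the diet are separated by HFD_cont_1 alone, so they are nearly confounded there. Against the skin label, the basal keratinocyte markers Krt5, Krt14, Krt15, Itga6 and Col17a1 summed to 14858 to 23380 CPM per library.

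The letters around the annotated start are shown for 7 members, because the TOP run is the sequence feature that this gene family is known for and because these members recur in the comparisons. Each window holds 15 bases before and 15 from the RefSeq start (GRCm38.p6), read 5′ to 3′ on the gene's strand. Capitals mark a run that opens with C, goes on with at least 4 more C or T, and is not preceded by C or T. Rpl13a lies at chr7:45128731-45128760 (minus strand), Rpl27a at chr7:109519180-109519209 (plus), Rpl15 at chr14:18270972-18271001 (minus) and Rps6 at chr4:86857353-86857382 (minus). Rplp0 lies at chr5:115559452-115559481 (plus), Rps4x at chrX:102189377-102189406 (minus) and Rps3a1 at chr3:86142654-86142683 (minus).
Rpl13a: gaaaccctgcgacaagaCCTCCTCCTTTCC
Rpl27a: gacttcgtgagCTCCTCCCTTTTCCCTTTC
Rpl15: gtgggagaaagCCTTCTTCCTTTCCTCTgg
Rps6: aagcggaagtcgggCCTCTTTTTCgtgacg
Rplp0: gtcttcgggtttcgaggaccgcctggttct
Rps4x: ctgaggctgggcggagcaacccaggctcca
Rps3a1: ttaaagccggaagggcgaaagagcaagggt

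Such a run was marked in the first 4 windows and not in the last 3. RefSeq windows were found for 65 of the 102 symbols. A C followed by at least 4 C or T stood exactly at the annotated start in 18.2% of 77 member windows and in 2.51% of all 32851 windows. It opened within 15 bases of the start in 64.9% of member windows against 40.9% of all. CCGGAAG, the letters of an ETS-type element, occurred on either strand in 33.8% of the members' 300-base windows and in 8.86% of all windows; the Rps3a1 window above holds it. These are letter matches at annotated starts, and runs counted here overlap one another.

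Levels per length were compared as TPM, made from the counts with the gene length of the table (the summed exons of all isoforms, which for some members is much longer than the mRNA). Rplp0, the base of the stalk that recruits translation factors, was the highest at 3676 TPM on average over the 16 libraries (range 2265 to 5641). Rpl4 followed at 3108 TPM, then Rps2, near the mRNA entry site, at 683 TPM and Rpl8 at 624 TPM. At the other end, Rpl35a (3.39 TPM), Rpl28 (3.44), Rpl23a (3.53) and Rpl24 (3.59) were the lowest members tested. The rank of Rpl35a rests on its length of 3526 bases, where its mRNA has 491. Its mean of 4.11 CPM was above that of Rpl23a (1.03 CPM) and of Rpl24 (1.27 CPM). Rplp0 and Rpl35a, whose proteins stand in equal number in the ribosome, were thus far apart in these counts.

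Rplp0 alone held 28.0% of the 1320769 counts of the 102 members and Rpl4 20.3%, and the 10 highest members held 74.1%. Reads that match several genes may be dropped or split by the counting, whose settings are not given. For Rps6, the small subunit protein phosphorylated by S6 kinases, 83.6% of 100-base stretches of its mRNA also occur in another annotated gene, against 18.3% for Rplp0, 5.14% for Rpl4 and 1.73% for Rpl8. Across 85 members with a coding sequence, this share and the TPM had a Spearman rho of -0.36. The pseudogene Rps6-ps4 had 34720 counts where Rps6 had 2928, and Rpl3-ps1 had 90271 where Rpl3 had 18600. The 254 pseudogene entries named for ribosomal proteins held 19.2% as many counts as the members, so the levels of members with near-identical copies are uncertain.

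Of the 102, 92 had enough counts to be tested. The 10 others had 81 counts or fewer over all libraries: Rpl38 (81), the paralogs Rpl39l (51) and Rpl10l (0), and 7 retrocopy-named genes, of which Rpl9-ps1, Rpl21-ps4 and Rpl36-ps4 were at 0. A count of 0 in all 16 libraries allows up to 0.0169 CPM, for counting error only. The 92 reflect expression in any group, so counts over them are given beside the same over all 17604 genes tested.

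The first comparison was of the diets in untreated skin, where the library ID prefix nearly follows the diet. The members' summed level was 6069 ± 508 CPM (SD, n = 4) in ND_cont and 9197 ± 442 CPM in HFD_cont, 1.52-fold higher on the high-fat diet. The 4 ND_cont libraries had 6448, 6557, 5730 and 5542 CPM and the 4 HFD_cont libraries 9300, 8545, 9466 and 9476 CPM, so all HFD libraries stood above all ND libraries. As a share of all counts, members made up 0.626% ± 0.0592 in ND_cont and 0.923% ± 0.0495 in HFD_cont. In bulk skin, more cells that express these genes and more RNA per cell cannot be told apart.

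The rise was not carried by Rplp0 and Rpl4 alone. These 2 genes summed to between 2348 and 3683 CPM in ND_cont and between 4124 and 5214 CPM in HFD_cont, and the other 100 members to between 2765 and 3194 and between 3951 and 5175 CPM, without overlap in either case. Small subunit members summed to 1577 ± 90.4 and 2476 ± 320 CPM and large subunit members to 4229 ± 596 and 6389 ± 410 CPM.

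**Figure D1:**
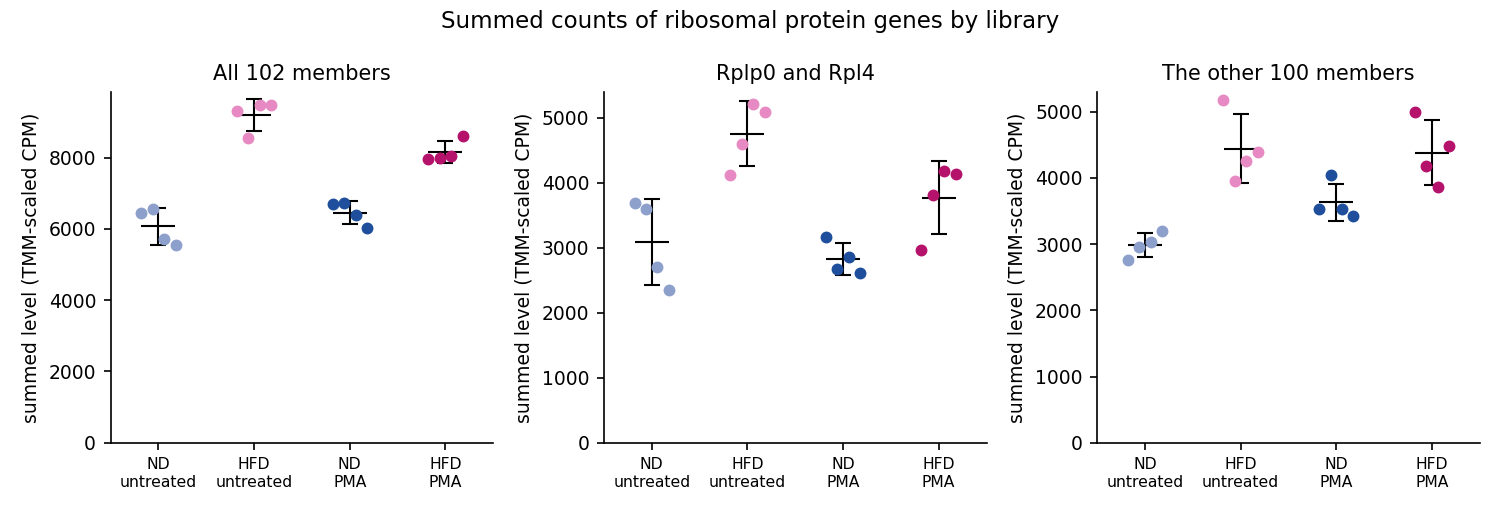
Summed TMM-scaled CPM (vertical axes, starting at 0) of all 102 members, of Rplp0 and Rpl4, and of the other 100, with 1 point per library, the mean as a bar and the SD as whiskers. For all members together the HFD libraries lie above the ND libraries in both untreated and PMA-treated skin, while in PMA-treated skin each of the other panels shows overlapping groups.

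Gene by gene, 19 of 92 tested members were higher in HFD_cont than in ND_cont and 0 were lower, by edgeR's quasi-likelihood test with Benjamini-Hochberg adjustment over all genes. Among all genes tested, 2.87% were called higher and 1.06% lower. The 19 were 6 small subunit genes (among them Rps2, Rps3, Rps3a1, Rps4x and Rps9), 11 large subunit genes (Rplp0, Rpl3, Rpl4, Rpl6, Rpl7, Rpl7a, Rpl8, Rpl13a, Rpl14, Rpl15, Rpl27a), the paralog Rpl6l and Rpl10-ps3. The median log2 fold change of the 92 was 0.36 against -0.02 for all genes, and 75 of 92 lay above 0. In 30 of 92 members all 4 HFD libraries stood above all 4 ND libraries and in 0 below, against 7.18% and 5.46% of all genes. At an unadjusted p under 0.05, 31 members were higher and 0 lower, where 9.38% and 7.16% of all genes were, and DESeq2 called 21 higher and 0 lower.

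Rpl13a, a large subunit protein (chr7:45125558-45128761, minus strand), had the largest called increase. It stood at 5.68, 3.97, 4.33 and 5.50 CPM in ND_cont and at 15.1, 11.1, 10.1 and 15.2 CPM in HFD_cont. The lowest HFD library was above the highest ND library, and the log2 fold change was 1.40 ± 0.24 (SE; edgeR adjusted p = 0.00202). Rpl13a shares 35.4% of its exon bases with Gm45713, Mir5121 and Snord33, so reads there cannot be given to 1 gene.

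Rpl27a (chr7:109519147-109522367, plus strand), another large subunit protein, had 9.26, 11.54, 8.07 and 5.05 CPM in ND_cont. All HFD_cont libraries lay close together, at 19.8, 20.3, 21.3 and 21.4 CPM, and the log2 fold change was 1.28 ± 0.22 (edgeR adjusted p = 0.00196). With the library ID prefix as a covariate its adjusted p was 0.0864.

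Rps2 (chr17:24718116-24721929, plus strand) had the smallest adjusted p of the members. Its ND_cont values were 267, 275, 249 and 219 CPM and its HFD_cont values 493, 479, 556 and 537 CPM. Every HFD library was well above every ND library, and the log2 fold change was 1.03 ± 0.11 (edgeR adjusted p = 2.79e-05). Of the mRNA stretches of Rps2, 62.3% also occur in another gene, so its level is uncertain.

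Rps4x (chrX:102184941-102189394, minus strand), the X-linked gene for a small subunit protein, had 197, 206, 156 and 154 CPM in ND_cont and 323, 309, 372 and 392 CPM in HFD_cont. The groups did not overlap, and the log2 fold change was 0.97 ± 0.13 (edgeR adjusted p = 0.000239). Rpl6l, a paralog of Rpl6 on chromosome 10, stood at 32.5, 29.99, 25.2 and 22.9 CPM in ND_cont and 53.9, 46.8, 60.6 and 58.9 CPM in HFD_cont. Its log2 fold change was 0.99 ± 0.14 (edgeR adjusted p = 0.000433), beside 0.83 ± 0.15 for Rpl6 itself. Rpl6l has no coding sequence in the annotation used (GENCODE M21), so its stretches shared with other genes were not measured. Of the mRNA stretches of Rpl6, 54.2% also occur in another gene, so how reads were divided between Rpl6 and Rpl6l is not known. Rpl7a (chr2:26910764-26913318, plus strand) had 13.2, 19.6, 13.1 and 13.6 CPM in ND_cont and 28.2, 28.4, 33.1 and 28.2 CPM in HFD_cont, with a log2 fold change of 0.99 ± 0.17 (edgeR adjusted p = 0.00188). Of the mRNA stretches of Rpl7a, 73.5% also occur in another gene. The call of Rpl7a was lost with the prefix as a covariate (edgeR adjusted p = 0.1), and the calls of Rps2, Rps4x, Rpl6l and Rpl13a were kept.

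The 2 most abundant members, Rplp0 and Rpl4, rose less than the members above. Rplp0 (chr5:115559467-115563727, plus strand) had 2196, 2146, 1552 and 1342 CPM in ND_cont and 2521, 2756, 3276 and 3192 CPM in HFD_cont. The groups were separate, with ND_cont_1 and ND_cont_2 near the lowest HFD library, and the log2 fold change was 0.70 ± 0.16 (edgeR adjusted p = 0.0177). The call ended without ND_cont_3, ND_cont_4, HFD_cont_3 or HFD_cont_4, with an adjusted p of up to 0.0694, and with the prefix as a covariate (0.496, log2 0.48). Rpl4 (chr9:64173375-64178666, plus strand), with 1488, 1452, 1147 and 1007 CPM in ND_cont and 1603, 1838, 1938 and 1892 CPM in HFD_cont, rose by 0.51 ± 0.13 on the log2 scale (edgeR adjusted p = 0.0329). Its call ended without ND_cont_3, ND_cont_4, HFD_cont_2, HFD_cont_3 or HFD_cont_4, with an adjusted p of up to 0.116, and with the prefix as a covariate (0.600, log2 0.32).

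The 2 other stalk proteins did not pass the test. Rplp1 had 22.5, 24.9, 42.6 and 47.7 CPM in ND_cont and 61.8, 34.7, 27.5 and 30.7 CPM in HFD_cont, with a log2 difference of 0.16 ± 0.33 (edgeR adjusted p = 0.877). Rplp2 differed by 0.23 ± 0.35 (adjusted p = 0.831). The Rplp1 groups overlapped, and the log2 difference seen for Rplp0 lies within 2 standard errors of that of Rplp1.

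Rps6 lay at 11.7 ± 1.11 CPM (SD, n = 4) in ND_cont and 16.1 ± 0.497 CPM in HFD_cont with separate groups, and its log2 difference of 0.45 ± 0.17 missed the threshold (edgeR adjusted p = 0.167). Rps27a, made as a fusion with ubiquitin, was at 4.60 ± 0.992 and 5.96 ± 2.21 CPM and was not called either (adjusted p = 0.655).

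Of the 19 called members, 11 remained called when any 1 of the 8 libraries compared was left out, and 8 were lost in at least 1 such fit. Rpl14, with the largest adjusted p of the 19 (0.0404), was lost in all 8, while Rps9 was lost without ND_cont_1 or HFD_cont_1. Rpl3 was lost without ND_cont_3, ND_cont_4, HFD_cont_2, HFD_cont_3 or HFD_cont_4. Rpl15 was lost in 6 of the 8 fits (not without ND_cont_3 or HFD_cont_1), and Rpl10-ps3 without ND_cont_1, ND_cont_3, ND_cont_4, HFD_cont_1 or HFD_cont_3. In all 19, HFD_cont_1, the single HFD_cont library of the RHS prefix, stood above all 4 ND_cont libraries. So did each of the 3 RHP libraries. The 19 were called from these same libraries, so their separation is a description and no check of the calls. Over all tested members, HFD_cont_1 stood above all 4 ND_cont libraries in 76 of 92, against 24.1% of all genes. HFD_cont_1 stands apart from the other HFD_cont libraries in its shorter members (median log2 deviation 0.51, against -0.28 to -0.07), and without it the median log2 fold change of the 92 was 0.27. With the prefix as a covariate, which rests on HFD_cont_1 alone, 9 members were called, 8 of them among the 19, and the median log2 fold change was 0.72.

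Other transcripts of the skin moved with the diet as well. Of 5 suprabasal keratinocyte markers (Krt1, Krt10, Flg, Lor, Ivl), 4 were higher in HFD_cont, with summed levels of 5340 to 6024 CPM in ND_cont and 8884 to 12135 CPM in HFD_cont. The 5 basal keratinocyte markers were mixed, with 2 called higher and 1 lower. Their sums overlapped, at 14858 to 18886 CPM in ND_cont and 17360 to 17719 CPM in HFD_cont. Of 6 fibroblast markers, 4 were lower (8636 to 10992 and 5579 to 6589 CPM). Markers of hair shaft and inner root sheath (Krt25, Krt27, Krt28, Krt71, Tchh, Krt35) summed to 8.89 to 50.7 CPM in ND_cont and 61.8 to 2067 CPM in HFD_cont, without overlap. Their median log2 difference was 5.85, and 0 of 6 passed the test by edgeR. Macrophage markers (361 to 489 and 227 to 346 CPM, 1 of 5 called lower) and cartilage markers (260 to 416 and 161 to 232 CPM, 0 of 5 tested called) were lower in every HFD_cont library. Of these lists, 1 cartilage marker was at 0 in all libraries, and the part of these cells in the rise of ribosomal protein transcripts was not tested. The summed level of the 37 genes of the mitochondrial genome lay between 14362 and 20848 CPM in ND_cont and between 20675 and 29030 CPM in HFD_cont.

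The same diet comparison was made in PMA-treated skin. Here 8 of 92 members were higher in HFD_PMA than in ND_PMA and 0 were lower, where 0.943% of all genes were called higher and 1.26% lower (edgeR, as above). The 8 were Rps2, Rps3a1, Rps4x, Rpl6, Rpl6l, Rpl7, Rpl8 and Rpl13a, and all 8 were among the 19 of untreated skin. That comparison shares no library with this one. Both use a spread estimated per gene from all 16 libraries, so the calls are not independent. How often calls recurred among all genes was not counted. The median log2 fold change of the 92 was 0.10 against -0.03 for all genes, with 52 of 92 above 0. Without HFD_cont_1 and HFD_PMA_1, a setting chosen after the data were seen, this median was -0.05. In 13 members all HFD libraries stood above all ND libraries and in 0 below, where 3.93% and 4.71% of all genes did. At an unadjusted p under 0.05, 15 were higher and 0 lower (6.69% and 8.8% of all genes), and DESeq2 called 11 higher and 0 lower.

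**Figure D2:**
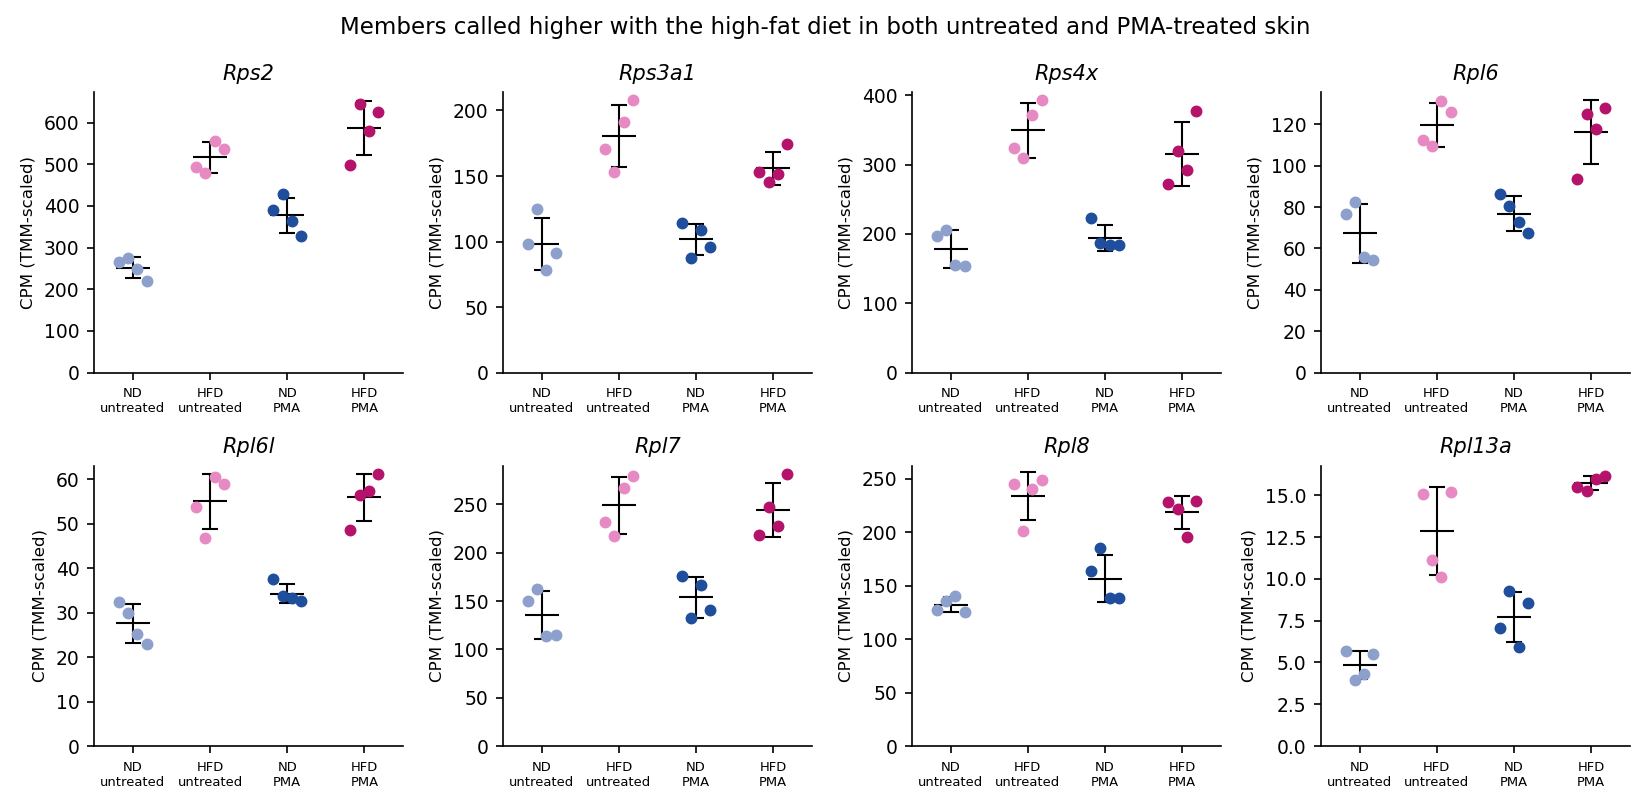
TMM-scaled CPM (vertical axes, starting at 0) of the 8 members called higher on the high-fat diet in both untreated and PMA-treated skin, with 1 point per library, the mean as a bar and the SD as whiskers. In each panel the HFD libraries lie above the ND libraries of the same treatment.

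Rpl13a again had the largest increase, from 7.05, 9.26, 5.92 and 8.53 CPM in ND_PMA to 15.5, 15.3, 15.97 and 16.2 CPM in HFD_PMA. All HFD values lay above all ND values, with a log2 fold change of 1.03 ± 0.23 (edgeR adjusted p = 0.0229). The call ended without ND_PMA_1, ND_PMA_3 or HFD_PMA_2, with an adjusted p of up to 0.0771. Rps2 had 390, 429, 365 and 329 CPM in ND_PMA and 499, 645, 579 and 626 CPM in HFD_PMA, without overlap and with a log2 fold change of 0.63 ± 0.11 (edgeR adjusted p = 0.00605).

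Rps4x stood at 223, 186, 184 and 184 CPM in ND_PMA and at 272, 320, 292 and 378 CPM in HFD_PMA. The ND libraries were nearly equal except ND_PMA_1, all lay below the HFD libraries, and the log2 fold change was 0.70 ± 0.13 (edgeR adjusted p = 0.00828). Rpl7, a large subunit protein, had 176, 132, 167 and 141 CPM in ND_PMA and 219, 247, 228 and 282 CPM in HFD_PMA, with a log2 fold change of 0.66 ± 0.14 (edgeR adjusted p = 0.0145). Rpl6l rose by 0.70 ± 0.14 (adjusted p = 0.013).

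Rps3a1, a small subunit protein, had 114, 87.6, 109 and 95.6 CPM in ND_PMA and 153, 145, 152 and 174 CPM in HFD_PMA. Its log2 fold change was 0.62 ± 0.14 (edgeR adjusted p = 0.0229), and the call ended without ND_PMA_4 (adjusted p = 0.0651). Rpl8, with 164, 185, 139 and 139 CPM against 228, 222, 196 and 229 CPM, had a log2 fold change of 0.48 ± 0.11 (edgeR adjusted p = 0.0278). It was lost without ND_PMA_3, ND_PMA_4, HFD_PMA_2 or HFD_PMA_4, with an adjusted p of up to 0.0902. Rpl6 (0.60 ± 0.15) was lost in 5 of 8 fits, those without ND_PMA_3, ND_PMA_4, HFD_PMA_2, HFD_PMA_3 or HFD_PMA_4, with an adjusted p of up to 0.0974. Rps2, Rps4x, Rpl6l and Rpl7 remained called whichever library was left out.

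Rplp0, with 1682, 1597, 1440 and 1273 CPM in ND_PMA and 1569, 2135, 2368 and 2427 CPM in HFD_PMA, was not called (log2 difference 0.50 ± 0.16, edgeR adjusted p = 0.11). HFD_PMA_1 fell among the ND libraries, and without it the adjusted p was 0.035. All 8 libraries here carry the RHP prefix. The summed level of all members was 6454 ± 319 CPM in ND_PMA and 8155 ± 311 CPM in HFD_PMA, 1.26-fold higher, without overlap. Large subunit members also did not overlap (3899 to 4444 against 4806 to 5738 CPM), whereas small subunit members did (1823 to 2216 against 2151 to 2770 CPM). Suprabasal markers summed to 4900 to 6572 CPM in ND_PMA and 7645 to 9655 CPM in HFD_PMA, 2 of 5 called higher, and fibroblast markers to 6312 to 8882 and 3794 to 6004 CPM, 3 of 6 called lower. Basal keratinocyte markers overlapped, at 18291 to 21266 CPM in ND_PMA and 19606 to 23380 CPM in HFD_PMA, with 0 of 5 called higher and 1 lower. Hair shaft and inner root sheath markers summed to 6.80 to 115 CPM and 49.6 to 2692 CPM, overlapping. Cartilage markers were at 175 to 330 and 85.1 to 138 CPM (4 of 5 tested called lower) and macrophage markers at 513 to 790 and 269 to 505 CPM (2 of 5 called lower). The part of these cells in the result was not tested.

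The members differed in their diet effect by the length of the protein they encode. Of 85 tested members with an annotated coding sequence, the median coding length was 456 bases. Among the 42 above it, 17 were called higher on the high-fat diet in untreated skin and 7 in PMA-treated skin, with median log2 fold changes of 0.56 and 0.30. Among the 43 at or below it, 1 (Rpl27a, 2.33%) and 0 were called, with medians of 0.16 and -0.14. Of all genes, 2.87% and 0.943% were called higher, so the shorter members were called about as often as other genes. Spearman's rho of coding length and diet log2 fold change across the 85 members was 0.52 in untreated and 0.61 in PMA-treated skin, as a description over genes, which share libraries. Across the 14523 other genes it had the opposite sign, -0.28 and -0.16. Of these other genes, 13528 had a coding length above 456 bases, so the correlations cover unlike ranges of length. A rho over a like range was not computed. Longer members also had higher levels (rho 0.55 with mean CPM), whose part in the calls was not tested.

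**Figure D3:**
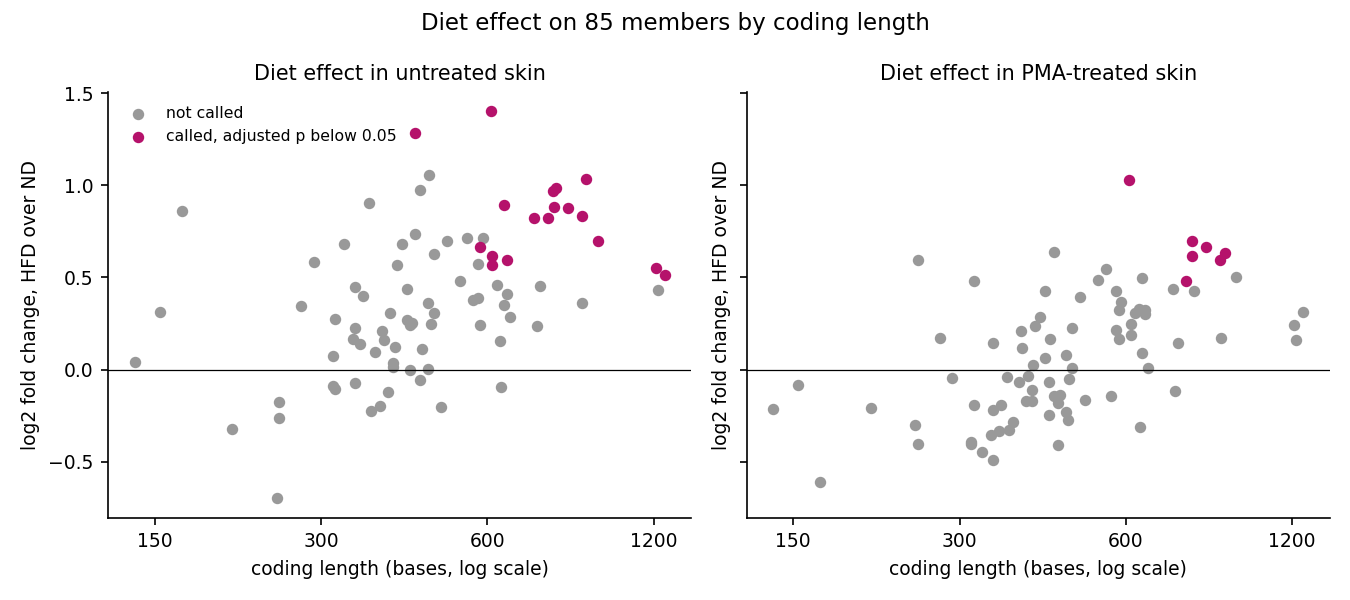
Log2 fold change of HFD over ND (vertical axis) against coding length in bases (horizontal axis, log scale) for 85 members, in untreated skin (left) and PMA-treated skin (right), with called members coloured. Called members lie towards longer coding sequences, and in PMA-treated skin most members at or below the median of 456 bases lie under 0.

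Among the shorter members, single libraries stood apart within a group. The median log2 deviation of the 43 shorter members from their 16-library mean was 0.51 in HFD_cont_1 but lay between -0.28 and -0.07 in the other HFD_cont libraries. It was 0.68 in HFD_PMA_1 and between -0.31 and -0.18 in the other HFD_PMA libraries. In ND_cont it ran from -0.46 to 0.25. The 42 longer members lay between -0.43 and -0.35 in the 4 ND_cont libraries and between 0.06 and 0.38 in the 4 HFD_cont libraries, so that the groups were separate.

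Rplp1 gives an example: its 2 highest values in HFD skin were 61.8 CPM in HFD_cont_1 and 61.8 CPM in HFD_PMA_1, with 21.8 to 34.7 CPM in the 6 other HFD libraries. Rpl26, at the exit of the peptide tunnel, had 38.6 and 45.8 CPM in these 2 libraries and 15.5 to 22.6 CPM in the 6 other HFD libraries; it is named after its values were seen. Other genes of like short length had median deviations of 0.25 in HFD_cont_1 and 0.22 in HFD_PMA_1. With a coding-length trend removed from each library, 13 members were called in untreated and 7 in PMA-treated skin, of 85 tested. Without both libraries, 15 and 5 of the 92 were called. Both settings were chosen after the data were seen.

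**Figure D4:**
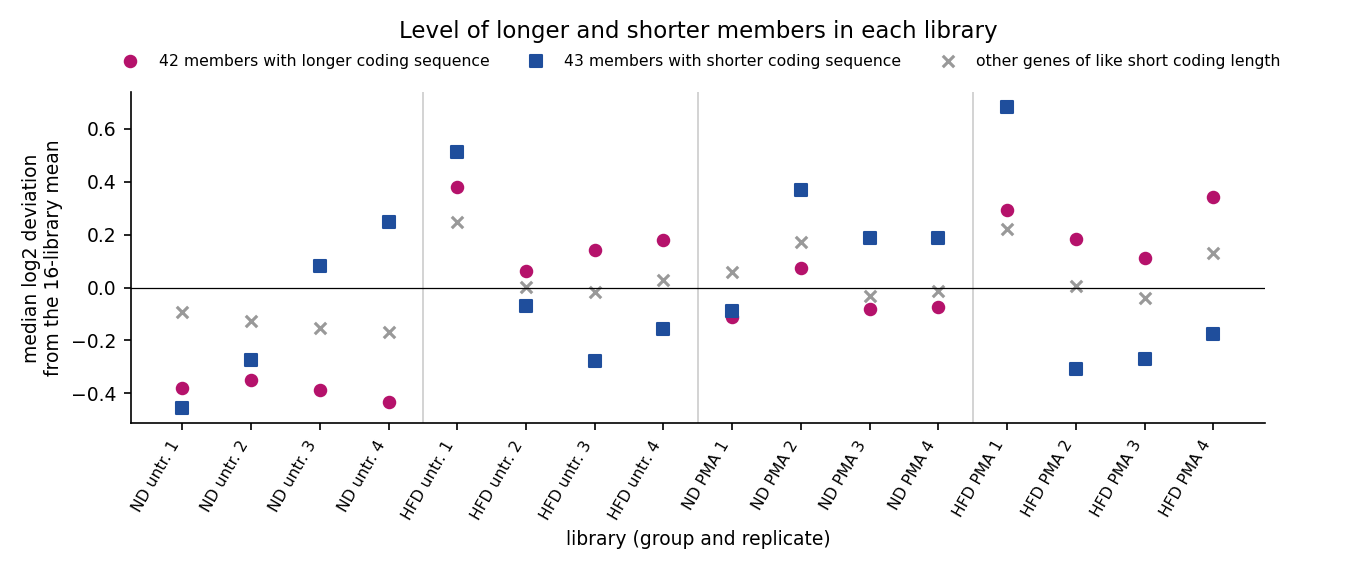
Median log2 deviation from the 16-library mean (vertical axis) in each library (horizontal axis) for 42 members with longer coding sequence, 43 with shorter coding sequence, and other genes of like short coding length. Longer members are lowest in the 4 ND_cont libraries, while shorter members stand highest in HFD_cont_1 and HFD_PMA_1.

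PMA itself was compared with untreated skin within each diet. In ND mice, 8 of 92 members were higher after PMA and 0 lower. That is 8.70% called higher, where 8.96% of all genes were called higher and 3.99% lower, so the members were called about as often as other genes. Their median log2 fold change was 0.29 against 0.00 for all genes, and 76 of 92 lay above 0. All 4 PMA libraries stood above all untreated libraries in 22 members and below them in 0, where 10.6% and 6.25% of all genes did so. At an unadjusted p under 0.05, 21 were higher and 0 lower (15.6% and 9.89% of all genes), and DESeq2 called 8 higher and 0 lower. This comparison uses the same ND_cont libraries as the diet comparison in untreated skin, so a low level in them enters both. Markers of other cells moved with PMA too: all 4 cycling cell markers were higher (sum 103 ± 25.4 CPM in ND_cont and 305 ± 82.4 CPM in ND_PMA), as were 4 of 5 neutrophil markers (13.7 ± 6.04 and 140.0 ± 78.1 CPM) and 3 of 5 macrophage markers, and 4 of 5 adipocyte markers were lower. Their part in the members' values was not tested.

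Among the 8 were Rps2, Rps6, Rpl7a, Rpl15, Rpl29, Rpl35a and the paralog Rpl7l1, a protein of ribosome assembly. Rpl7a rose from 14.9 ± 3.16 to 26.6 ± 2.67 CPM (SD, n = 4), a log2 fold change of 0.84 ± 0.17 (edgeR adjusted p = 0.00181). Rpl7l1 went from 86.6, 94.6, 68.5 and 67.4 CPM in ND_cont to 126, 132, 124 and 106 CPM in ND_PMA, without overlap, by 0.62 ± 0.13 on the log2 scale (edgeR adjusted p = 0.00202). Only 2.23% of its mRNA stretches occur in another gene, so its counts are little affected by copies.

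Rpl15 rose by 0.64 ± 0.14 (edgeR adjusted p = 0.00465), from 26.04, 25.8, 28.6 and 26.6 to 42.2, 35.5, 43.9 and 45.6 CPM. Rps2 rose by 0.58 ± 0.11 (adjusted p = 0.0013). Rps6 stood at 12.1, 12.9, 11.7 and 10.2 CPM in ND_cont and at 19.0, 17.6, 17.2 and 17.4 CPM in ND_PMA, by 0.60 ± 0.17 (edgeR adjusted p = 0.0243). Its call ended without ND_cont_3, ND_cont_4, ND_PMA_1 or ND_PMA_2, with an adjusted p of up to 0.0677.

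Rpl29, a heparin-binding large subunit protein, rose by 0.82 ± 0.23 (edgeR adjusted p = 0.0196), a call lost without ND_cont_1, ND_cont_2 or ND_PMA_2 (up to 0.0651). Rpl35a, at 3.21, 2.08, 3.08 and 1.91 CPM against 4.98, 5.98, 5.27 and 6.27 CPM, had the smallest counts of the 8 and remained called in 1 of 8 fits that left out a library (the one without ND_cont_1). With the prefix as a covariate 4 members were called, 2 of them among the 8, and the median moved to 0.83; this fit too takes the prefix from HFD_cont_1 alone.

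In HFD mice, by edgeR, 0 of 92 were called in either direction, where 7.34% of all genes were called higher and 4.6% lower. At an unadjusted p under 0.05, 3 were higher and 1 lower (13.3% and 10.8% of all genes). All 4 PMA libraries stood above all untreated libraries in 4 members and below in 2 (10.8% and 7.93% of all genes). DESeq2 called 1, Rplp0, lower. The median log2 fold change was -0.01, as for all genes (-0.02), and 44 of 92 lay above 0. Rplp0 had 2521, 2756, 3276 and 3192 CPM in HFD_cont and 1569, 2135, 2368 and 2427 CPM in HFD_PMA. All PMA values were below all untreated values, and its log2 difference of -0.47 ± 0.16 just missed the threshold (edgeR adjusted p = 0.0646; DESeq2 adjusted p = 0.0255).

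Cycling cell markers (4 of 4), neutrophil markers (5 of 5) and leukocyte markers (3 of 4) were called higher in the same comparison. Called lower were 4 of 5 tested cartilage markers, 3 of 5 suprabasal keratinocyte markers, 3 of 5 adipocyte markers and 3 of 7 skeletal muscle markers. The suprabasal markers summed to 8884 to 12135 CPM untreated and 7645 to 9655 CPM with PMA. The part of these cells was not tested. The other members with the smallest p there were Rpl13 (0.61 ± 0.25, adjusted p = 0.135), Rpl12 (0.59 ± 0.27, adjusted p = 0.176) and Rpl7l1 (0.27 ± 0.12, adjusted p = 0.192), all by edgeR. The summed level of all members was 0.887 times that of untreated HFD skin, and the groups overlapped (8545 to 9476 CPM untreated, 7971 to 8620 CPM with PMA). Without Rplp0 and Rpl4 the ratio was 0.986.

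**Figure D5:**
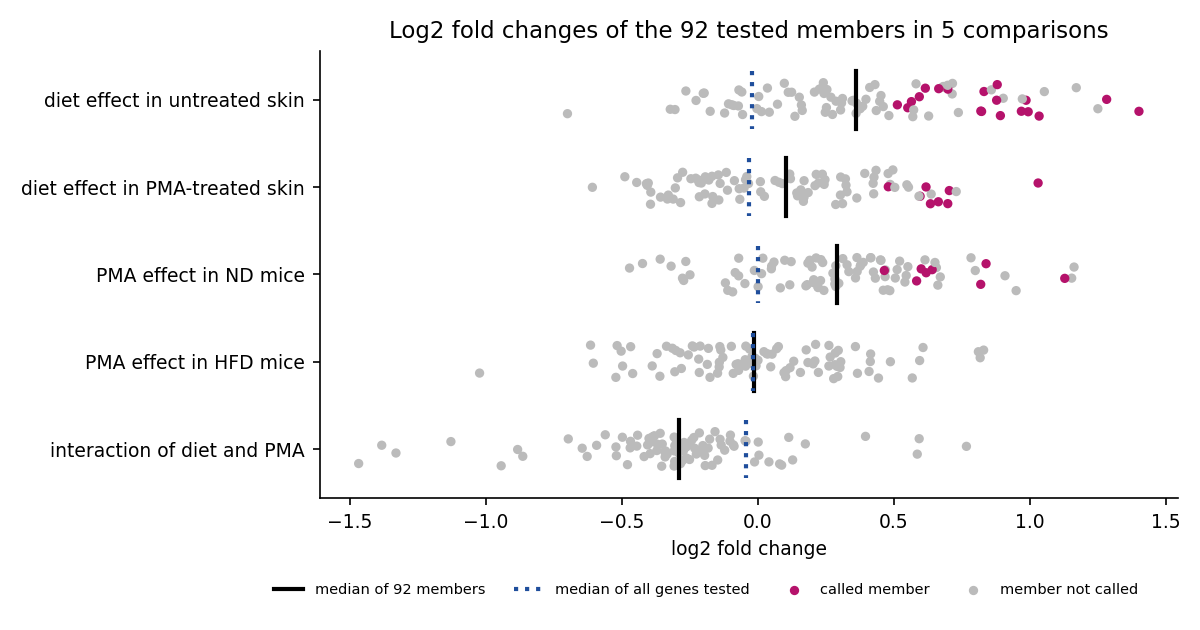
Log2 fold changes (horizontal axis) of the 92 tested members in 5 comparisons, 1 point per member (vertical spread is only to separate points), with the members' median as a black line and the median of all genes tested as a dotted line. The members' median stands at 0.36 for the diet in untreated skin, at -0.01 for PMA in HFD mice and at -0.29 for the interaction.

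Whether the diet effect differed between untreated and PMA-treated skin was tested as an interaction. By edgeR and by DESeq2 0 of 92 members were called. Of all genes edgeR called 0% higher and 0.00568% (1 gene of 17604) lower. At an unadjusted p under 0.05, 0 members were higher and 7 lower, against 1.77% and 2.86% of all genes. The members' median was -0.29 against -0.04 for all genes, and 80 of 92 lay below 0. Rps2 had the smallest p (log2 -0.40 ± 0.16, unadjusted p = 0.0197), followed by Rpl7a (-0.56 ± 0.23), Rps3 (-0.39 ± 0.17) and Rpl35a (-1.13 ± 0.49), each with an edgeR adjusted p of 0.999. The difference between the 19 calls and the 8 calls of the 2 diet comparisons is therefore not shown for any single member.

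Paralogs were set beside their parents. Rpl3l, a paralog known from muscle, was at 36.0 TPM where Rpl3 was at 97.1 TPM. Of the mRNA stretches of Rpl3, 79.4% also occur in another gene, against 0% for Rpl3l, so the level of Rpl3 beside Rpl3l is uncertain. The CPM of Rpl3l varied from 9.63 to 32.9 between libraries without a call in any comparison. Rpl3 itself rose with the diet in untreated skin (0.55 ± 0.13, edgeR adjusted p = 0.0201). Rpl22l1 (10.2 TPM) was below Rpl22 (36.9 TPM), and their log2 diet differences in untreated skin were 0.90 ± 0.33 and -0.20 ± 0.17, neither called (adjusted p = 0.148 and 0.621). Rpl7l1 rose with PMA in ND mice while Rpl7 did not pass there (0.18 ± 0.14, edgeR adjusted p = 0.448), and Rpl7 rose with the diet while Rpl7l1 did not pass (0.24 ± 0.13, adjusted p = 0.354); the difference between the 2 genes was not tested.

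Some paralogs were listed above their parents. Rps27l, a p53-responsive gene, was at 77.4 TPM and Rps27rt at 203 TPM, where Rps27 was at 10.3 TPM. Rpl36al was at 36.6 TPM and Rpl36a at 4.27 TPM. Rpl6l was at 141 TPM and Rpl6 at 87.6 TPM, but in mean CPM Rpl6 was the higher (95.0 against 43.2). The length used for Rpl6 was 3140 bases, where its mRNA has 1270, and that for Rpl6l was 888 bases. The order of Rpl6l and Rpl6 per length is therefore uncertain. Of the mRNA stretches of Rps27, 98.4% also occur in another gene, and of Rps27rt 89.5%, against 0% for Rps27l. For Rpl36a and Rpl36al the shares were 83.6% and 59.0%. None of Rps27, Rps27l, Rpl36a and Rpl36al was called in any comparison. Rps4x was called with the diet, whereas its copy Rps4l, annotated as a transcribed pseudogene and no member, was at 15.9 ± 4.94 and 17.9 ± 3.99 CPM in untreated ND and HFD skin (log2 0.17 ± 0.27, adjusted p = 0.834). Rpl39 (8.57 TPM) was not called, its paralog Rpl39l was too low to test, and Rpl10 (23.8 TPM) had no called change beside its testis paralog Rpl10l at 0.

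The start run occurred in called members and in others. Of 13 called members (diet, untreated skin) with a RefSeq window, 2 had the run exactly at the start and 10 within 15 bases of it (6 with a run not preceded by C or T), and of 49 tested and not called, 11, 34 and 28 had. CCGGAAG was found in 5 of 13 and 18 of 49.

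Rpsa, which the name rule leaves out, encodes a small subunit protein that is also a laminin receptor. It rose with the diet from 88.6 ± 11.6 to 177 ± 22.3 CPM (SD, n = 4) in untreated skin (log2 1.00 ± 0.13, edgeR adjusted p = 0.000239) and from 114 ± 12.7 to 168 ± 20.96 CPM in PMA-treated skin (0.56 ± 0.13, adjusted p = 0.0286). Of 26 other TOP mRNAs and ribosomal genes, 11 were called higher with the diet in untreated skin and 3 in PMA-treated skin, 0 lower, with median log2 fold changes of 0.48 and 0.31, where 2.87% and 0.943% of all genes were called higher. They include Eef1b2, an exchange factor of elongation (0.90 ± 0.12, adjusted p = 0.000268), Rack1, a scaffold on the small subunit (0.86 ± 0.14) and Btf3, which binds nascent chains (0.83 ± 0.17). With PMA, 9 of the 26 were higher in ND mice and 10 in HFD mice (8.96% and 7.34% of all genes), among them Eef1d (1.03 ± 0.14 and 0.76 ± 0.14).

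Genes that make ribosomes were also followed, to be read against the same shares of all genes (2.87% and 0.943% higher with the diet, 8.96% and 7.34% with PMA). Of 30 ribosome biogenesis genes, 18 were higher after PMA in ND mice and 13 in HFD mice, 0 lower, with medians of 0.58 and 0.40, and 2 and 1 were higher with the diet in untreated and PMA-treated skin. Bysl, needed for small subunit maturation, rose by 1.13 ± 0.17 in ND mice and 0.62 ± 0.17 in HFD mice, and Polr1a, the large subunit of RNA polymerase I, by 0.78 ± 0.19 in HFD mice. Of 55 genes whose symbol opens with Eif and a digit, mostly initiation factors, 54 were tested. Of these, 16 and 11 were called higher with PMA and 8 and 1 with the diet, led by Eif3b (1.17 ± 0.17 with PMA in ND mice). This name rule also takes in Eif4ebp1 and some genes of the TOP and mTOR lists, so the lists overlap. Of 76 tested mitochondrial ribosomal protein genes, 4 and 1 were higher with the diet and 13 and 6 with PMA, of which the 1 and the 6 are near those shares. Of 24 genes of the mTOR pathway and of translation control, 0 were called with the diet by edgeR in either skin (3 higher and 0 lower at an unadjusted p under 0.05 in untreated skin, 2 and 3 in PMA-treated skin), and 3 and 1 were higher with PMA (Eif4ebp1, an mTOR-regulated repressor of initiation, in both: 0.75 ± 0.21 and 0.65 ± 0.21).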

How the data were processed

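SMART-Seq2 libraries were made from 2 ng of RNA and read as paired ends of 151 bases per the labels' protocols. The authors deposited 1 table of raw counts per gene, with a gene length. Per the submitters' processing notes, the tools were STAR 2.3 and featureCounts 1.5, with GRCm38 and mm10 as builds; the sources used here do not give settings, strand or annotation release.

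Genes were filtered with filterByExpr (minimum count 10, total 15) and tested with edgeR 4.0.16 quasi-likelihood (R 4.3.3, robust, TMM) with all 16 libraries in a single model of the 4 groups. A call is a p under 0.05 after Benjamini-Hochberg adjustment over the 17604 genes tested. The procedure was tested on simulated counts that held no effect of the library ID prefix or of gene length, so it does not bear on either. The design text gives separate mice per group, so p-values measure the spread between mice. SMART-Seq2 carries no molecular identifiers, so SDs do not separate PCR copies from molecules.

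Per comparison, the called members with the 6 largest changes in each direction and a mean CPM of at least 5 were named (without calls, the 4 with the smallest p). The 4 highest and 4 lowest per length, stalk genes, Rps6, Rps27a and paralog pairs were named throughout. Members and lists were chosen with earlier results of these data known. Positions and coding lengths are from GENCODE M21 (GRCm38), matched for 102 of 102 members, of which 12 have no coding sequence there. Start windows are from RefSeq (GRCm38.p6). Alternatives were DESeq2 1.42.0, other scaling and filters, length offsets, a replicate block, the library ID prefix and leaving out libraries. The values of 1 member are not reported here.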

Additional observations from a re-analysis of the deposited data

Results flagged for a closer look

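Single libraries were compared with the 3 others of their group for the named members and the summed levels, in 164 groups, of which chance alone picks about 1 in 20. In 15 of them 1 library stood far from the rest. HFD_cont_1 was highest for Rpl29 at 53.5 CPM (the others 28.8 to 30.8) and for Rpl36al at 29.4 CPM (10.5 to 12.4). HFD_PMA_1 was highest for Rplp1 at 61.8 CPM (21.8 to 24.1), Rplp2 at 18.7 CPM (6.12 to 7.20) and Rpl36al at 30.04 CPM (13.4 to 15.7). HFD_cont_3 was highest for Rpl35a at 5.81 CPM (3.48 to 3.58) and Rpl7a at 33.1 CPM (28.2 to 28.4), and lowest for Rps6 at 15.3 CPM (16.2 to 16.4). HFD_cont_2 was highest for Rpl7l1 at 104 CPM (88.3 to 91.1).

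HFD_PMA_4 was highest for Rpl24 at 2.51 CPM (0.795 to 1.06) and for the summed level of all members at 8620 CPM (7971 to 8040). ND_PMA_1 was highest for Rps4x at 223 CPM (184 to 186), ND_PMA_3 for Rpl36al at 26.1 CPM (18.4 to 19.7) and ND_cont_2 for Rpl7a at 19.6 CPM (13.1 to 13.6). ND_PMA_2 was highest for the summed level without Rplp0 and Rpl4 at 4039 CPM (3425 to 3528). Of the 15, 5 are in the 2 libraries HFD_cont_1 and HFD_PMA_1.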

How the results depend on the processing

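With the library ID prefix as a covariate, 9 members were called for the diet in untreated skin (8 of the 19; median log2 fold change 0.72) and 4 for PMA in ND mice (2 of the 8; median 0.83); this covariate rests on HFD_cont_1, and the cause was not tested. Restricting the fit to RHP libraries gave no value for these 2 comparisons or the interaction. For the diet in PMA-treated skin, 5 members were called from only the 8 libraries compared and 5 without HFD_cont_1 and HFD_PMA_1. For PMA in ND mice, 5 were called without the low-count filter, from only the 8 libraries, or with a trend on table length or coding length removed. For PMA in HFD mice, 1 was called with DESeq2, RHP libraries only, the prefix covariate, only the 8 libraries, the stricter filter, upper-quartile factors or either length trend. The coding-length trend and leaving out both libraries numbered 1 were chosen after seeing the data. Under the settings not named here, counts stayed within 1.5 times the reported ones.

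Leaving out 1 library gave 13 to 17 calls for the diet in untreated skin, 5 to 9 in PMA-treated skin (5 without HFD_PMA_2, ND_PMA_3 or ND_PMA_4), 4 to 7 for PMA in ND mice (4 without ND_PMA_2), 0 to 1 in HFD mice (1 without HFD_PMA_1, HFD_PMA_4 or HFD_cont_1) and 0 for the interaction. With a replicate block, 16, 7, 7, 0 and 0 members were called. Same-numbered libraries correlated between -0.067 and 0.202 over 24 pairs. The 2 above 0.1 were HFD_cont_1 with HFD_PMA_1 (0.202) and HFD_cont_3 with HFD_PMA_3 (0.116). Outside their group, 8 of 16 libraries correlated best with their own number, so the correlations do not settle whether HFD libraries are paired. The design text gives separate mice per group, and the numbers were not taken as pairs. Among the members named by the rule for named genes, each taken over its settings, 67 values lost and 11 gained a call and 0 called values changed sign. Depth limits the 21 tested members with a mean under 5 CPM.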
